A study of Homo sapiens with 24 samples.

Results

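Wogonin is a flavone from the root of Scutellaria baicalensis, a plant of East Asian medicine, and the experiment described here set it against its solvent in a pair of head and neck cancer cell lines, SAS and FaDu. Both are established lines of head and neck squamous cell carcinoma, a cancer of the stratified epithelium of mouth and throat. Of the 24 arrays of the series, 2 were chosen because their labels name wogonin and DMSO, 1 for each line. On each array RNA of wogonin-treated cells carried Cy5 and RNA of DMSO-treated cells of the same line carried Cy3, so both groups shared the line, the medium (RPMI 1640 or DMEM, with no statement of which line had which) and the solvent. The wogonin dose and the time of treatment are not given in the sources used here, nor is the number of cultures behind each RNA.

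The other 14 arrays of the same design hold other treatments (genistein, transfected microRNAs and small interfering RNAs) in prostate, kidney and head and neck lines. None is a control for wogonin, and they are used here only to show how far a gene moves on this design.

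Wogonin is known from other work as an inhibitor of the kinase CDK9, which releases RNA polymerase II into elongation, and flavones as a class can bind the aryl hydrocarbon receptor, a ligand-activated transcription factor. Short-lived transcripts, among them those of stress and cytokine genes, depend on continued transcription. Cells that fold many secreted proteins keep an endoplasmic reticulum stress response, in which the factors ATF6, XBP1 and ATF4 raise chaperone and amino acid genes. Low oxygen acts through the factor HIF1, and interferon through STAT and IRF factors. These programmes structure the account below.

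The values are log2 ratios of wogonin over DMSO, so 1.0 is a doubling and a value below 0 means less signal with wogonin. Each line has 1 array and no dye swap, so no gene has a replicate within a line, and a preference of a gene's spot for 1 dye cannot be told apart from the treatment. The error given after ± is the scanner software's estimate for the spot (median 0.218 in SAS and 0.216 in FaDu). It covers spot noise and not the spread between cultures. A gene is said to have risen or fallen in a line when its ratio passed 1.0 or -1.0, which is a limit of size and not a test. A gene is represented by its brightest tested spot, and 13948 genes had 1 channel or more well above background on both arrays.

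The control channels fitted their labels. Across tested spots the Cy3 signal of the SAS array correlated most with the Cy3 signals of the other SAS arrays (Pearson r = 0.985 and 0.964), and that of the FaDu array with the other FaDu arrays (r = 0.980 and 0.966), against 0.929 or less for any other line. In the DMSO channel all 14 squamous markers, among them KRT5, KRT14 and TP63, were well above background in both lines. Of 8 fibroblast markers 1 was above background in each line, VIM in SAS and COL1A1 in FaDu. VIM, the intermediate filament vimentin, was at 3.69 ± 0.40 in SAS with wogonin (2.64 with normexp, another background correction), and in FaDu its DMSO channel was not well above background. Of 5 leukocyte markers CD14 and CD68 were above background in both lines and PTPRC in SAS, while CD3E, which defines T cells, was above background in neither.

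Groups of genes with lower ratios in both lines carry short control sequences that are known for them, and these are shown first. The windows are the reference promoters of RefSeq (GRCh38.p14), each cut to its matches and 40 bases on either side, and the capitals mark every match of the group's motif on either strand. The first pair belongs to genes of the endoplasmic reticulum stress response, HERPUD1 (chr16:56931985-56932075, plus strand) and HSPA5 (chr9:125241351-125241449, minus strand), with the capitals marking ERSE-II (ATTGGNCCACG) in the former and ERSE (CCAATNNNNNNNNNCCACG) in the latter. The next pair belongs to interferon-stimulated genes, ISG15 (chr1:1013344-1013439, plus strand) and ISG20 (chr15:88638907-88638996, plus strand), with the core of the interferon-stimulated response element (GAAANNGAAA) in capitals. The last is ANKRD37 (chr4:185396639-185396742, plus strand), a hypoxia gene, with the core of the hypoxia response element (ACGTG) in capitals.

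HERPUD1: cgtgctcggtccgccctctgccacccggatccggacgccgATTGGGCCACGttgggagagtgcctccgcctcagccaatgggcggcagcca
HSPA5: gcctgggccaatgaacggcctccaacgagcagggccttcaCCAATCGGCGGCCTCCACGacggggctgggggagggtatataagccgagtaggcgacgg
ISG15: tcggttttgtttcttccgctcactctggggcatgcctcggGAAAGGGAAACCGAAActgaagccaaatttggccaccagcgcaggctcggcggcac
ISG20: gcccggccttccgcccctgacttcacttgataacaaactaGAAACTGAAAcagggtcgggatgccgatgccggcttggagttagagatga
ANKRD37: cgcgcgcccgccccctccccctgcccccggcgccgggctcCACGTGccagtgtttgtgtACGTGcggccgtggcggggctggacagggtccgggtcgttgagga

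ERSE or ERSE-II was present in 9 of the 17 endoplasmic reticulum chaperone genes with a promoter entry, against 0.136% of all 27305 promoters. The interferon core was present in 11 of 15 interferon-stimulated genes, against 3.65% of all promoters. The hypoxia core, a much shorter motif, was present in 10 of 22 glycolysis and hypoxia genes, against 21.6% of all. In HERPUD1 the ERSE-II match overlaps a match of the hypoxia core. These genes were listed for their known regulation, so the shares describe the lists and not an effect of wogonin.

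More genes passed the limit in SAS than in FaDu. In SAS 803 genes rose (5.76% of those tested) and 810 fell (5.81%). In FaDu 631 rose (4.52%) and 356 fell (2.55%). The lines shared 191 genes that rose in both (1.37%) and 135 that fell in both (0.968%), while 56 genes passed the limit in opposite directions (0.401%). Of the genes that fell in FaDu 37.9% also fell in SAS, and of those that fell in SAS 16.7% also fell in FaDu. Of the genes that rose in SAS 23.8% rose in FaDu, and of those that rose in FaDu 30.3% rose in SAS. Across all tested genes the ratios of the lines had a Pearson r of 0.365 and a Spearman coefficient of 0.349, given as a description, since genes are not replicates and both arrays shared a slide and a dye orientation. Over all tested spots the correlation between the 2 wogonin arrays (0.386) was above that of either with any of the 14 other arrays (at most 0.306, with miR-29a in SAS).

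**Figure D1:**
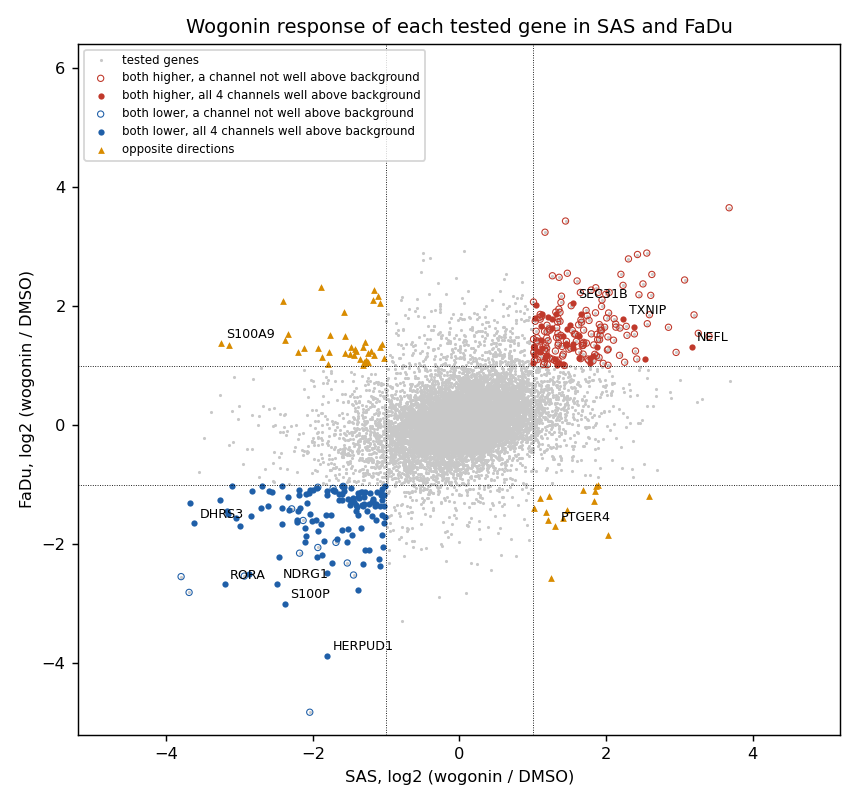
Each point is 1 tested gene, with its log2 ratio of wogonin over DMSO in SAS on the x axis and in FaDu on the y axis, and dotted lines mark the limits of 1.0 and -1.0. Filled blue points make up most of the 135 genes lower in both lines, while most of the 191 genes higher in both are open red circles, for which a channel was not well above background.

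The shared falls rested on firmer signals than the shared rises. All 4 channels were well above background for 121 of the 135 genes that fell in both lines but for 40 of the 191 that rose. In the other 151 the DMSO channel was not well above background on 1 array or both, so their ratios rest on a dim channel. Spots well above background made up 56.9% of the DMSO channel and 66.0% of the wogonin channel in SAS, and 55.0% and 66.3% in FaDu. The part of this difference between the dyes in the rises was not tested. With background correction by normexp (offset 50) and loess in place of the scanner's own, 13 genes rose and 46 fell in both lines, so the share of rises went from 58.6% to 22.0%. All 59 were among the 326. Named genes below are those measured in all 4 channels unless a bound is given or a channel is said to be not well above background.

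The 10 largest shared falls included genes of stress, hypoxia and epithelial function. HERPUD1, an endoplasmic reticulum membrane protein of the degradation pathway for misfolded proteins, fell by 1.80 ± 0.26 in SAS (signal 23650 with DMSO and 6778 with wogonin) and by 3.88 ± 0.42 in FaDu (78130 and 5324). NDRG1, a hypoxia and metal-stress gene, fell by 2.49 ± 0.31 in SAS (36430 and 6490) and by 2.66 ± 0.32 in FaDu (31140 and 4927). DHRS3, which reduces retinal to retinol, fell by 3.62 ± 0.40 and 1.65 ± 0.25. All of these spots were bright in both channels, and their ratios moved by at most 0.05 with normexp.

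RORA, a nuclear receptor, had the lowest average, at -3.20 ± 0.47 in SAS and -2.67 ± 0.35 in FaDu. Its signals were low (112 and 12.2 in SAS, 159 and 25.0 in FaDu), and with normexp its ratios were -0.93 and -1.26. BLNK, an adaptor of immune receptor signalling, behaved alike, at -2.87 and -2.50 with the scanner's correction and -1.06 and -0.87 with normexp. KLHL24, a substrate adaptor for ubiquitination of keratins, went from -1.32 to -0.38 in FaDu and from -3.67 to -2.31 in SAS. These 3 genes lost the shared call under that setting, and the other 7 of the 10 kept it.

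The rest of the 10 were S100P, FUT3, ANG and CCN5. S100P, a calcium-binding protein of many carcinomas, was at -2.39 and -3.00. FUT3, the Lewis fucosyltransferase, was at -2.99 in SAS and -1.70 in FaDu. ANG, the secreted ribonuclease angiogenin, was at -2.46 and -2.21. CCN5, a matricellular protein, was at -3.16 and -1.50. For RORA, BLNK, NDRG1, FUT3 and ANG both lines lay below the lowest of the 14 other arrays, whereas S100P ranged from -5.13 to 5.01 on those arrays and so covered both lines.

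Among the 10 largest shared rises were a brake on glucose uptake and redox balance and several little-studied genes. TXNIP, which binds thioredoxin and limits glucose uptake, rose by 2.24 ± 0.30 in SAS (78.9 with DMSO, 372 with wogonin) and by 1.78 ± 0.26 in FaDu (157 and 539). NEFL, the light neurofilament chain, rose by 3.17 ± 0.36 in SAS (93.7 and 843) and by 1.32 ± 0.24 in FaDu (558 and 1391). SEC31B, a COPII coat subunit, rose by 1.55 ± 0.25 and 2.05 ± 0.28. PPARGC1B, a coactivator of mitochondrial genes, rose by 2.53 and 1.10, and a dimmer spot of the same gene gave 2.68 and 1.21. The values of the lines did not overlap with the other arrays for TXNIP (-1.73 to 1.26 there) and SEC31B (-1.14 to 0.51), while PPARGC1B reached 2.77 on another array.

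ZNF239, a zinc finger gene, stood at 2.39 and 1.64, and NUDT6, a Nudix hydrolase, at 1.505 and 1.69. NT5M, the mitochondrial nucleotidase, stood at 1.88 and 1.30, MROH8 at 1.32 and 1.87, and the pseudogene LAMB2P1 at 1.65 and 1.86. The tenth, named COX1 in the file for the mitochondrial cytochrome c oxidase subunit, stood at 1.63 and 1.5, and its reporter is placed at chr1:567567-567626 (hg19), so it cannot separate mitochondrial RNA from a nuclear copy. PPARGC1B, LAMB2P1 and MROH8 lost the shared call with normexp.

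**Figure D2:**
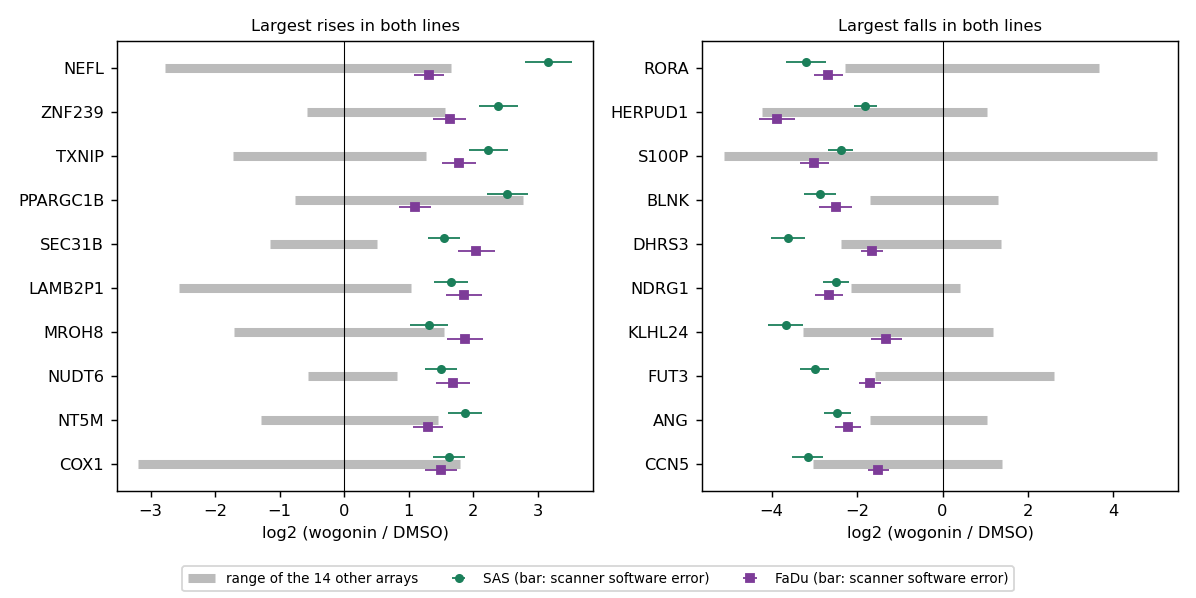
Log2 ratios of wogonin over DMSO for the 10 largest rises and 10 largest falls shared by the lines, with SAS as circles, FaDu as squares, bars for the scanner software's error and grey bars for the range of the 14 other arrays. TXNIP, SEC31B, NUDT6, LAMB2P1 and ZNF239 lie above the grey bar in both lines, and S100P, HERPUD1 and COX1 lie within it in both.

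For a test across samples, limma compared the 2 wogonin arrays with the 14 other arrays over 25068 spots and, at a Benjamini-Hochberg adjusted p of 0.05, called 10 spots higher (0.0399%) and 1 lower (0.00399%), with 2199 spots at an unadjusted p under 0.05. The 1 lower spot was GRB7, an adaptor of receptor tyrosine kinases that is often amplified with ERBB2, at -2.32 ± 0.30 in SAS and -1.43 ± 0.25 in FaDu (limma adjusted p = 0.049). On the other arrays GRB7 stayed between -0.60 and 0.68. No spot was called lower with the slide as a block, against arrays of the same slide alone, or among spots with all 4 channels well above background, so the GRB7 call was lost there, and its ratios with normexp were -1.83 and -0.88. SEC31B was among the 10 higher spots (limma adjusted p = 0.033), as was LOC729324 at 0.83 and 1.13.

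The other 8 higher spots had a DMSO channel not well above background in both lines, so bounds are given for most of the values. Among them the non-coding RNA LINC00663 was at least 4.55-fold higher in SAS and at least 5.42-fold higher in FaDu. MAPDA, an adenosine deaminase-like enzyme, was at least 2.70-fold and 4.28-fold higher, and COL5A3, a collagen chain, at least 1.17-fold and 1.11-fold. A lincRNA interval on chromosome 11 (82783427 to 82803502, hg19) was at 2.14 ± 0.32 in SAS and at least 5.16-fold higher in FaDu. These bounds hold only with the scanner's background correction. With normexp LINC00663 was at 0.74 in both lines, MAPDA at 0.26 and 0.46 and the chromosome 11 interval at 0.78 and 0.72. Of the 11 called spots 1 passed 1.0 in both lines with normexp. With the FaDu array alone in the wogonin group limma called 2 spots higher and 1 lower, and with the SAS array alone 0 higher and 3 lower. Set against the 4 other arrays of the same lines, with the line as a block, it called none (lowest adjusted p = 0.274, with 2061 spots at an unadjusted p under 0.05). The shared falls above were mostly short of this test, with limma adjusted p of 0.34 for HERPUD1, 0.21 for NDRG1, 0.26 for RORA and 0.20 for DHRS3, and TXNIP was at 0.20.

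The endoplasmic reticulum chaperones had lower ratios as a group, and more so in FaDu. Of 18 tested genes 15 were below 0 in both lines and none was above 0 in both, where over all tested genes 25.9% were below 0 in both and 36.7% above 0 in both. The median was -0.40 in SAS and -0.93 in FaDu, against 0.05 and 0.06 over all tested genes. In SAS 2 fell and in FaDu 6 fell, against 5.81% and 2.55% of all tested genes. HERPUD1 and DNAJB9 fell in both (0.968% of all tested genes did). DNAJB9, a co-chaperone of BiP, was at -1.09 and -2.37. SDF2L1 was at -0.63 in SAS and -2.05 in FaDu, and XBP1, the transcription factor activated by splicing, at -0.40 and -1.53. HSPA5, which encodes BiP, the main chaperone of the compartment, was at -0.33 ± 0.21 and -0.93 ± 0.22, past the limit in neither line. The counts and medians with normexp were 2 and 6 genes, -0.41 and -0.91.

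The group called the ATF4 amino acid stress response parted the lines. Its 20 genes had a median of 0.38 in SAS and -0.62 in FaDu, with 3 rises and no fall in SAS and 8 falls and no rise in FaDu. Over all tested genes 5.76% rose and 5.81% fell in SAS, and 4.52% rose and 2.55% fell in FaDu. With normexp 3 genes of the list rose in SAS and 6 fell in FaDu, with medians of 0.31 and -0.61. DDIT3, the transcription factor CHOP, was at -0.78 ± 0.22 in SAS and -3.28 ± 0.37 in FaDu (signal 3255 with DMSO and 334 with wogonin). ATF3 was at -0.28 and -2.89, although the dimmest of its 4 spots gave 0.50 and 0.17. CHAC1, which degrades glutathione, was at 0.28 and -1.91, and VLDLR, a lipoprotein receptor, at -0.71 and -1.36. PSAT1 and ASNS, enzymes of serine and asparagine synthesis, were at 1.32 and 1.15 in SAS but -0.24 and -0.45 in FaDu. The difference between the lines was not tested, since each has 1 array.

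These stress genes also move widely on other arrays of the design. On the miR-375 array of FaDu, the chaperone median was -2.23 and that of the ATF4 group -2.22, with HERPUD1 at -4.22 and DDIT3 at -3.72. Other arrays had chaperone medians of -0.36 to 0.24. Genistein, an isoflavone, was studied only in the prostate lines PC3 and DU145, where the ATF4 group had medians of 2.50 and 1.17. Line, dose and time differ or are not given, so these stand beside the wogonin values (0.38 in SAS and -0.62 in FaDu) with no comparison.

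**Figure D3:**
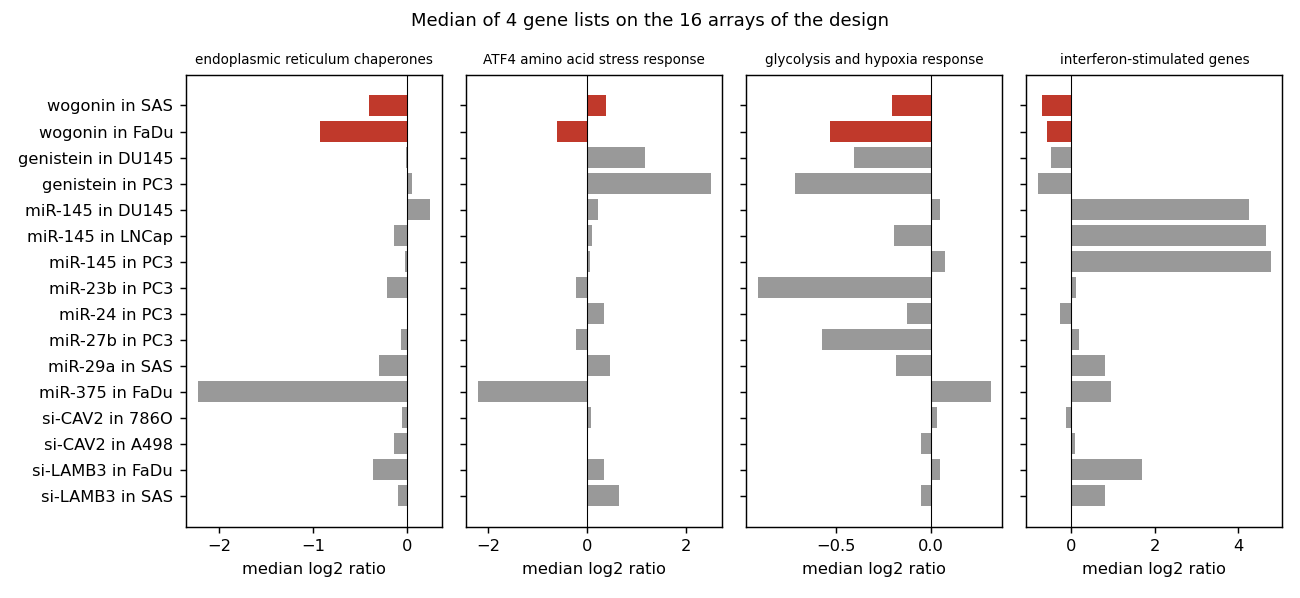
Median log2 ratio of 4 gene lists (panels) on each of the 16 arrays of the design, with the wogonin arrays in red and other treatments in grey and with a separate x scale for each panel. The miR-375 array of FaDu has the lowest chaperone and ATF4 medians, and the 3 miR-145 arrays have interferon medians of 4.25 to 4.77, against -0.69 and -0.57 with wogonin.

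Most glycolysis and hypoxia genes had ratios below 0 in both lines, 18 of 25 tested against 25.9% of all tested genes. Past the limit 5 fell in both, against 0.968% of all, with medians of -0.20 in SAS and -0.53 in FaDu. The 5 were NDRG1, ANKRD37, EGLN3, BNIP3 and P4HA1, all known targets of HIF1. ANKRD37 was at -1.75 ± 0.26 and -2.32 ± 0.30, and both values lay below the lowest of the other arrays (-1.62). EGLN3, an oxygen-sensing prolyl hydroxylase, was at -2.83 and -1.11. BNIP3L, which marks mitochondria for removal, was at -2.44 in SAS and -0.73 in FaDu. Among the glycolytic enzymes PGK1 was at -0.09 and -0.34 and ENO1 at -0.04 and -0.36, while ALDOC, an aldolase, had a DMSO channel not well above background in SAS, where it was at least 1.35-fold higher, and was at -0.16 in FaDu. HIF1A, the oxygen-regulated subunit of HIF1, was at 0.27 and 0.33. On the other arrays the list's median ran from -0.91 (miR-23b in PC3) to 0.32 (miR-375 in FaDu), a range that holds both wogonin values. Under normexp 3 genes of the list fell in both lines, with medians of -0.23 and -0.48.

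Interferon-stimulated genes showed the other group of shared falls. Of 22 tested genes 14 were below 0 in both lines, against 25.9% of all tested genes. In both lines 5 fell and 1 rose, against 0.968% and 1.37% of all, with medians of -0.69 in SAS and -0.57 in FaDu. OASL, an antiviral 2'-5' oligoadenylate synthetase-like protein, was at -1.80 ± 0.33 and -2.48 ± 0.31. ISG20, an RNA exonuclease, was at -2.11 and -1.96, and IRF7, the interferon regulatory factor, at -2.42 and -1.40. IFIT2, an antiviral RNA-binding protein, was at -1.52 and -1.23, and ISG15, a ubiquitin-like modifier, at -1.19 and -1.25. All 5 lay below the lowest of the 14 other arrays in both lines. IFI44L, which rose, had a DMSO channel not well above background in SAS and a bound of 1.01-fold there, and its ratio in FaDu was 1.11. With normexp 4 genes of the list fell in both lines and none rose, and the medians were -0.36 in both. The genistein arrays had medians of -0.78 in PC3 and -0.48 in DU145 for this list.

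**Figure D4:**
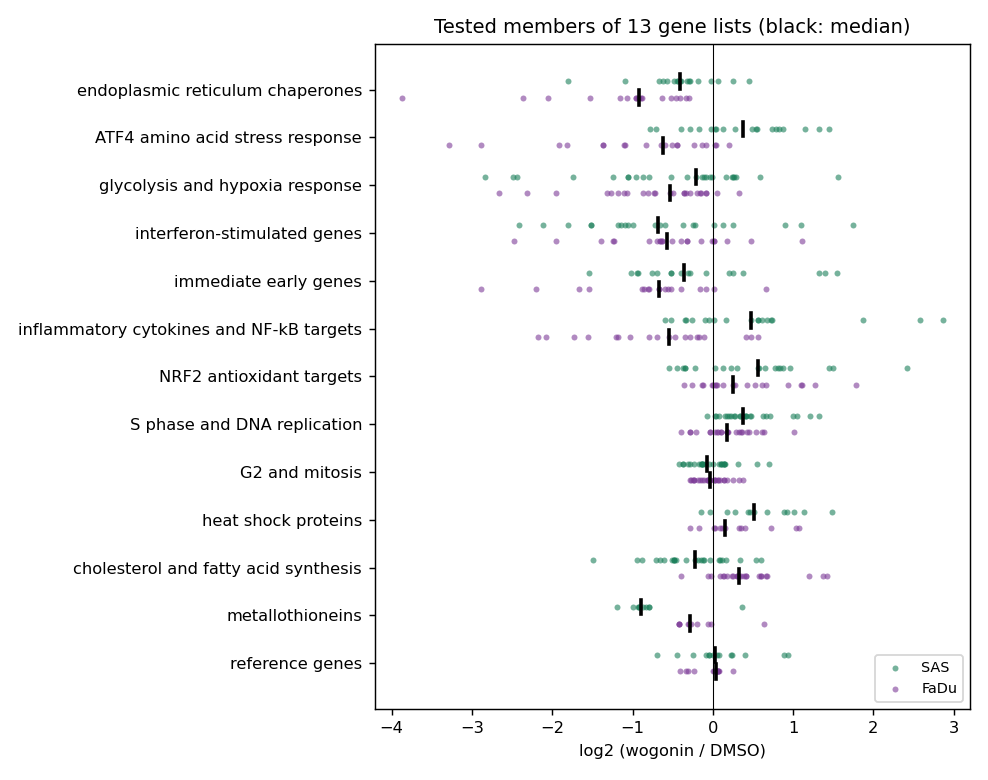
Log2 ratios of wogonin over DMSO (x axis) of the tested members of 13 gene lists, with SAS in green above FaDu in purple and a black bar at each median. The chaperone, hypoxia and interferon medians lie below 0 in both lines, the ATF4, inflammatory and cholesterol medians lie on opposite sides of 0, and the reference genes lie at 0.03 and 0.04.

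Genes that answer growth and stress signals within minutes were mostly lower in FaDu. Of 18 immediate early genes 11 were below 0 in both lines, against 25.9% of all tested genes, with medians of -0.35 in SAS and -0.67 in FaDu. FOS fell in both lines, at -1.02 and -1.54, though with normexp no gene of the list passed the limit in both, and EGR1 in SAS, at -1.54 against -0.80 in FaDu. DUSP1, a MAP kinase phosphatase, was at -0.76 and -2.20. In the other direction JUN was at 1.54 in SAS and 0.02 in FaDu. Among 18 genes of ERK feedback and EGF receptor ligands DUSP6, the ERK phosphatase, fell in both, at -1.29 ± 0.24 and -2.09 ± 0.28, and the medians were 0.31 and -0.73 (0.12 and -0.24 with normexp). SPRED1, an inhibitor of the pathway, was at -0.50 and -0.95, EREG, the ligand epiregulin, at -0.37 and -0.85, and DUSP5, a nuclear ERK phosphatase, at -0.22 and -0.90. The members named here were below 0 in both lines, but 13 of the 18 genes were above 0 in SAS. In both lines 6 were above 0 and 5 below 0, against 36.7% and 25.9% of all tested genes.

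The 19 tested inflammatory and NF-kB genes had a median of 0.48 in SAS and -0.55 in FaDu (0.14 and -0.49 with normexp). In SAS 3 rose, against 5.76% of all tested genes, and in FaDu 7 fell, against 2.55%. The lines also parted with knock-down of LAMB3, where the list's median was 2.06 in SAS and -0.465 in FaDu. It was 0.158 with miR-29a in SAS and 0.439 with miR-375 in FaDu. CCL20, a chemokine, was at -0.52 and -2.07, and IL1A at -0.05 and -1.55. IL6 was at 0.56 and -1.73, and ICAM1, an adhesion molecule, at -0.59 and -0.70. CSF2, which encodes GM-CSF, had a DMSO channel not well above background in either line. It was at least 6.52-fold higher in SAS and at 0.56 ± 0.74 in FaDu. CSF3, which encodes G-CSF, was at -2.17 ± 0.54 in FaDu, where its wogonin channel was not well above background. The 3 SAS rises of this list (CSF2, CXCL3 and CXCL8) had DMSO channels not well above background, and with normexp no gene of the list rose in SAS and 4 fell in FaDu.

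Of the transcription elongation factors, HEXIM1, the protein that holds CDK9 inactive, was the 1 gene of 14 tested that fell in both lines (0.968% of all tested genes did), at -1.72 ± 0.26 and -1.09 ± 0.23. CDK9 itself was at 0.11 and 0.26. CCNT2, a cyclin partner of CDK9, was at 1.08 and 0.32, and ELL at -0.59 and -0.33. With normexp no gene of the list fell in both lines.

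Apoptosis genes of the BCL2 family gave 3 shared falls among 15 tested, against 0.968% of all tested genes. They were HRK, BBC3 and BIK, which are all promoters of cell death. HRK was at -2.42 ± 0.30 and -1.66 ± 0.26, BBC3, also called PUMA, at -1.49 and -1.35, and BIK at -1.02 and -1.64. BCL2, the inhibitor of death, had a DMSO channel not well above background in both lines. It was at least 3.25-fold higher in SAS and at 0.62 ± 0.46 in FaDu. MCL1, a short-lived inhibitor, was at -0.48 and -0.26, and BOK, a BAX relative, at -0.97 and -0.19. The list's medians were -0.02 and -0.18, and 2 genes kept the shared fall with normexp. With normexp no gene of the list rose in SAS, so the bound for BCL2 holds only with the scanner's background correction.

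The p53 targets had medians of -0.13 and -0.15 over 23 genes, with BBC3 the 1 gene that fell in both (0.968% of all tested genes did), and medians of -0.15 and -0.08 with normexp. CDKN1A, the cell cycle inhibitor p21, was at -1.10 ± 0.31 and -0.62 ± 0.29. PLK3, a stress kinase, was at 0.27 and -1.75, and TP53I3 at -0.95 and -0.42. TP53INP1 was at -3.08 in SAS. In FaDu its DMSO channel was not well above background and its ratio was 0.81 ± 0.95, which gives no direction. TIGAR was at 1.95 ± 0.40 in SAS, with a DMSO channel not well above background, and at 0.98 in FaDu. With normexp no p53 target rose in SAS. Death receptor genes did not move together. TNFSF10, which encodes the death ligand TRAIL, was at -2.40 in SAS and 0.18 in FaDu, and no gene of the 8 passed the limit in both. CASP10, a death-signal caspase, was at -0.60 and -0.32, the receptor gene TNFRSF1A at -0.48 and -0.28, and TNFRSF10B, a TRAIL receptor, at 0.62 and -0.04.

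DNA replication genes had ratios above 0, but few were large. Of 25 genes 18 were above 0 in both lines, against 36.7% of all tested genes, and none was below 0 in both, and the medians were 0.38 in SAS and 0.18 in FaDu. MCM10, a replication initiation factor, was the 1 shared rise (1.37% of all tested genes rose in both), at 1.33 ± 0.24 and 1.02 ± 0.23, and with normexp it did not pass in both. TYMS, thymidylate synthase, was at 1.21 and 0.54, and FEN1, the flap endonuclease, at 0.62 in both lines. By contrast none of 26 genes of G2 and mitosis passed the limit in either line, and their medians were -0.07 and -0.04. BIRC5, which encodes survivin, was at 0.70 and 0.09, KIF20A, a mitotic kinesin, at -0.43 and -0.28, NEK2, a centrosomal kinase, at -0.37 and -0.23, and CCNB2, cyclin B2, at -0.31 and -0.24. Of 17 G1 regulators none passed in both, and CDKN1C, an inhibitor of cyclin-dependent kinases, was at -1.66 and -0.45, with CCND1, cyclin D1, at 0.87 and 0.43 and CCNE1, cyclin E1, at 0.55 and 0.82.

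The aryl hydrocarbon receptor list gave no shared call and no rise of the receptor's main target. CYP1A1, the enzyme most used as its readout, lay below the background limit in both channels of the SAS array and was at -0.77 ± 0.32 in FaDu, from a signal of 53.6 with DMSO to 31.4 with wogonin. AHRR, the receptor's repressor and target, was at -2.68 ± 0.32 in SAS and 0.32 ± 0.26 in FaDu. CYP1B1 was at -1.72 and -0.16, and TIPARP, which restrains the receptor, at -1.13 and -0.69. UGT1A6, a glucuronidation enzyme, went the other way, at -0.80 and 2.10, and its other spot gave -0.68 and 2.98. AHR was at 0.04 and -0.91, ARNT, its partner, at -0.94 and -0.08, CYP1A2 at 0.04 and -0.11, ALDH3A1 at -0.21 and 0.16 and NQO1 at 0.55 and 0.27. SERPINB2 was not tested. The list's medians were -0.58 in SAS and -0.09 in FaDu (-0.36 and -0.02 with normexp).

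Of 21 tested NRF2 antioxidant targets 11 were above 0 in both lines and 1 below 0 in both, against 36.7% and 25.9% of all tested genes, with medians of 0.57 and 0.25 (0.32 and 0.22 with normexp). AKR1C1, an aldo-keto reductase, was the 1 shared rise, which was lost with normexp, at least 3.50-fold higher in SAS and at 1.11 ± 0.23 in FaDu, and a dimmer spot gave 0.97 and 0.86. Its near-identical relative AKR1C2 shares sequence with it, so the 2 may not be separated. ABCC3, a drug exporter, was at 0.84 and 1.79, and ABCC2 at least 2.83-fold higher in SAS and at 0.04 in FaDu. In SAS 3 genes of the list rose, against 5.76% of all tested genes, and 1 rose with normexp. The bounds hold only with the scanner's background correction. HMOX1, heme oxygenase, was at 0.22 and 1.10, and SLC7A11, the cystine importer, at 1.44 and -0.14.

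Heat shock proteins had 9 of 13 genes above 0 in both lines, against 36.7% of all tested genes, and none below 0 in both, with medians of 0.51 and 0.15 and no shared call. HSPE1, a mitochondrial co-chaperone, was at 1.48 and 0.33, HSPA8 at 0.93 and 0.40, and HSPA1A and HSPA1B, whose sequences are nearly identical, at 0.46 and 0.28 in SAS and at 1.07 and 1.03 in FaDu. Metallothioneins, small metal-binding proteins, were below 0 in both lines for 9 of the 10 tested genes on the list, against 25.9% of all, with medians of -0.89 and -0.28. MT1B, MT1L, MT2A and MT1X lay between -0.9996 and -0.86 in SAS and between -0.43 and -0.31 in FaDu, and their spots may share RNA because the genes are close copies.

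Lipid synthesis genes differed by line. Of 25 genes 7 were above 0 in SAS and 22 in FaDu, against 54.5% and 56.4% of all tested genes, with medians of -0.22 and 0.32. SCD, the stearoyl-CoA desaturase, was at 0.53 and 1.37. SC5D, a sterol desaturase, was at -0.13 in SAS and at 1.42 ± 0.33 in FaDu, where its DMSO channel was not well above background. STARD4 was at -0.94 and -0.40, and ACACA, acetyl-CoA carboxylase, at 0.60 in both. DHCR7, the last enzyme of cholesterol synthesis, was at 0.08 and 0.67. INSIG1, the sterol sensor partner, passed the limit in opposite directions, at -1.49 ± 0.25 and 1.20 ± 0.23. Under normexp the medians were -0.20 and 0.30.

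Matrix and protease genes had 12 of 20 below 0 in both lines, against 25.9% of all tested genes, and medians of -0.48 and -0.41 (-0.42 and -0.26 with normexp). TIMP2, an inhibitor of matrix metalloproteinases, was at -1.50 and -0.88, and MMP2, which it inhibits, at -1.07 ± 0.43 and -1.13 ± 1.09, where the FaDu error was nearly as large as the value and the shared fall was lost with normexp. TIMP1 was at -0.55 and -0.71, and MMP7, a secreted protease, at -1.88 in SAS and 0.00 in FaDu. TIMP3 was at -1.88 in SAS and had a DMSO channel not well above background in FaDu.

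Among measured genes that moved in opposite directions, S100A9 and S100A7 of the keratinocyte differentiation list had the widest gaps. S100A9, a subunit of the antimicrobial protein calprotectin, was at -3.25 ± 0.37 in SAS (4265 with DMSO, 448 with wogonin) and at 1.37 ± 0.24 in FaDu (353 and 914). S100A7, psoriasin, was at -3.14 ± 0.36 and 1.34 ± 0.24. KRT15, a basal keratin, was at -1.93 and 1.30. The 15 tested differentiation genes had medians of -0.58 in SAS and -0.09 in FaDu (-0.12 and -0.09 with normexp). In SAS 5 fell and 1 rose, against 5.81% and 5.76% of all tested genes. In FaDu 1 fell and 4 rose, against 2.55% and 4.52%. TGM1, the transglutaminase that crosslinks the cornified envelope, was the 1 shared fall (0.968% of all tested genes fell in both), at -1.81 and -1.50. LCN2 was at -2.41 and -0.12.

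SLC47A2, a drug transporter, was at -1.47 and 1.31, and SFTPC, a surfactant protein of lung, at -1.08 and 2.04. In the opposite sense PTGER4, a prostaglandin E2 receptor, was at 1.31 ± 0.24 in SAS and -1.70 ± 0.27 in FaDu, and TGM2, the tissue transglutaminase, at 1.42 and -1.57. CD274, the immune checkpoint ligand PD-L1, was at 1.47 and -1.43, PTX3, a secreted pattern recognition protein, at 1.21 and -1.59, and FRMD5 at 1.69 and -1.09, although a dimmer spot of FRMD5 gave 2.84 and 0.28. Of these 10 genes 4 still passed the limit in both lines with normexp (PTGER4, S100A9, KRT15 and SLC47A2), and the signs held in all 10.

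**Figure D5:**
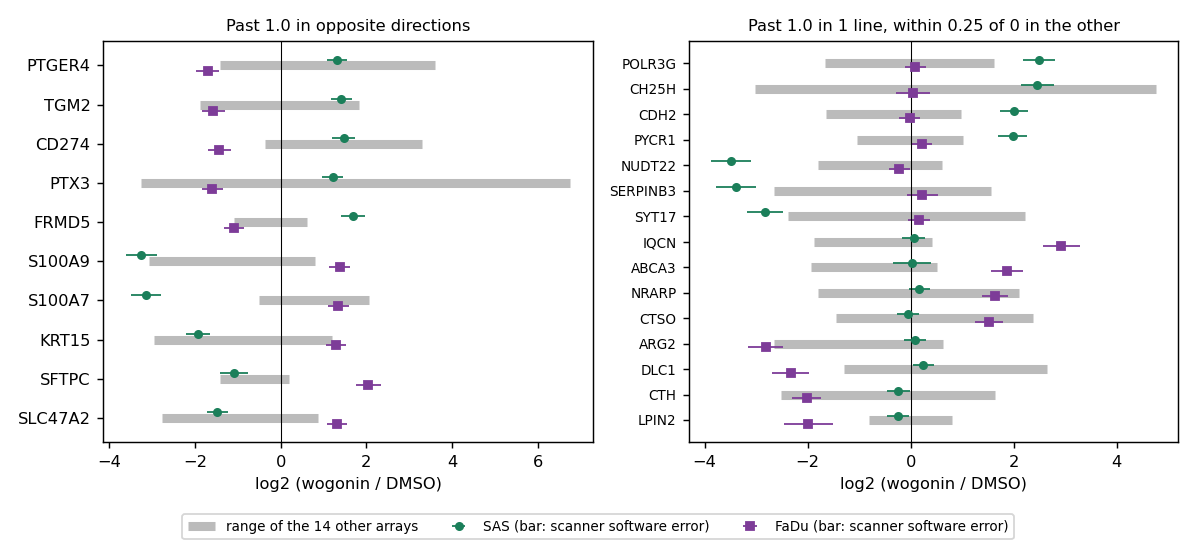
Log2 ratios of wogonin over DMSO for 10 genes past 1.0 in opposite directions and for 15 genes past 1.0 in 1 line and within 0.25 of 0 in the other, with bars for the scanner software's error and grey bars for the range of the 14 other arrays. S100A9 and S100A7 show the widest gaps between SAS (circles) and FaDu (squares).

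Some genes moved in 1 line and stayed within 0.25 of 0 in the other. In SAS alone 202 rose (1.45% of tested genes) and 231 fell (1.66%), and in FaDu alone 106 rose (0.76%) and 51 fell (0.366%). All 4 channels were well above background for 130 and 209 of those in SAS and for 36 and 40 of those in FaDu. POLR3G, a subunit of RNA polymerase III, was at 2.50 in SAS and 0.09 in FaDu, with CH25H, cholesterol 25-hydroxylase, at 2.46 and 0.04, CDH2, N-cadherin, at 2.01 and -0.02, and PYCR1, which makes proline, at 1.98 and 0.22. Lower in SAS alone were NUDT22 (-3.49 and -0.22), SERPINB3, a squamous cell carcinoma antigen (-3.40 and 0.23), and SYT17 (-2.83 and 0.17).

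In FaDu alone the leading rises were IQCN (0.06 in SAS and 2.93 in FaDu), ABCA3, a lipid transporter (0.03 and 1.87), NRARP, a Notch feedback gene (0.17 and 1.64), and CTSO, a cathepsin (-0.05 and 1.52). The other spot of IQCN gave 0.995 in SAS and 0.64 in FaDu. The leading falls were ARG2, an arginase (0.09 and -2.82), DLC1, a GTPase-activating protein (0.25 and -2.33), CTH, which makes cysteine (-0.24 and -2.02), and LPIN2, a phosphatidate phosphatase (-0.25 and -1.99). With normexp ABCA3 was at 0.74, CTSO at 0.80, DLC1 at -0.89 and LPIN2 at -0.49 in FaDu, all short of the limit. IQCN, NRARP, ARG2 and CTH still passed it there.

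The array also carries lincRNA intervals without gene names. Of 3947 tested intervals 174 rose in both lines (4.41%) and 25 fell in both (0.633%), but all 4 channels were well above background for 16 of the 174 and 13 of the 25, and with normexp 4 rose and 2 fell. The largest measured rise was at chromosome 16, 82167524 to 82172799 (hg19, minus strand), at 2.37 ± 0.31 in SAS and 1.01 ± 0.24 in FaDu. The largest measured fall was at chromosome 17, 70399468 to 70588943 (hg19, minus strand), at -2.59 ± 0.32 and -1.22 ± 0.23.

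Genes used as references stayed close to 0. Of 14 none passed the limit in either line, and the medians were 0.03 and 0.04. TFRC was at 0.94 and 0.26 and B2M at -0.70 and 0.05. As RNA came from whole cultures, a lower level in every cell cannot be told apart from the loss of the cells that held a transcript.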

How the data were processed

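Total RNA (Trizol) was labelled with Agilent's two-colour Low RNA Input kit and hybridised to SurePrint G3 arrays of 1 design (hg19 annotation). Per the labels and file headers, the authors extracted spots with Agilent Feature Extraction 10.7.3.1, whose log10 ratio of Cy5 over Cy3 follows background subtraction and dye normalization. The deposited files give processed, mean and background intensities per spot, with flags and an error of the log ratio. The series matrix holds the same log10 ratios (largest difference 0).

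Control and outlier-flagged spots (446 in SAS, 419 in FaDu) were left out, spots averaged per probe, and ratios converted to log2. Tested were 25068 of 42405 probes (59.1%), those with at least 1 channel well above background on both arrays. RefSeq tables named 28422 probes (67.0%), and 20513 genes. A bound sets the bright signal against the higher of the dim signal and the lowest signal well above background in that channel. Where the dim signal was the higher, this is the ratio itself, and the ratio with its error is given instead. The ratio is also given where its error exceeded it. Bounds hold for the scanner's background correction. The number of arrays limits the precision.

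limma 3.58.1 (R 4.3.3) compared the wogonin arrays with the 14 others, Benjamini-Hochberg adjusted over all tested probes, after a check on simulated data. Named genes had all 4 channels well above background: the 10 largest rises and falls in both lines, the 5 largest differences in each sense, the 4 largest in each line alone, the 4 largest members of each list, and every tested member of the aryl hydrocarbon receptor list. Dim members given as bounds or ratios, and HSPA5, ISG15, PSAT1, ASNS, BNIP3, P4HA1, PGK1, ENO1, HIF1A, JUN, MCL1, CDK9, INSIG1, ALDOC, VIM and CYP1A1, were added after their values were seen. Members and lists were chosen with earlier results of these data known. Alternatives changed background, centring, filter, limit, probe summary and the arrays compared. Both wogonin arrays lay on 1 slide of 2. Python 3 with pandas made the tables. Some genes that the rule names are not reported here.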

Additional observations from a re-analysis of the deposited data

Results flagged for a closer look

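The genes that passed the limit of 1.0 in opposite directions in the lines stood out, because the only sample of SAS moved one way and the only sample of FaDu the other. The difference between the lines was not tested, since each has 1 array. As SAS minus FaDu on the log2 scale, the differences were 3.01 for PTGER4, 2.98 for TGM2, 2.90 for CD274, 2.80 for PTX3 and 2.78 for FRMD5. In the other sense they were -4.62 for S100A9, -4.49 for S100A7, -3.22 for KRT15, -3.13 for SFTPC and -2.79 for SLC47A2.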

How the results depend on the processing

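Counts of genes depended on the background correction and on dim spots. The 191 genes higher and 135 lower in both lines, 56 in opposite directions, 1613 past the limit in SAS and 987 in FaDu became 13, 46, 8, 564 and 207 with normexp, and 20, 54, 11, 659 and 248 with loess and no background correction. With all 4 channels required, 40 genes were higher in both, 20 opposite, 1050 past in SAS and 494 in FaDu. With no filter 379 were lower in both, 102 opposite, 2874 past in SAS and 2050 in FaDu. A limit of 0.5 gave 862, 581, 350, 5014 and 3289, and a limit of 1.5 gave 60, 40, 7, 611 and 369. With the mean of the 14 other arrays subtracted, 225 genes were lower in both. Median centring, the authors' matrix and the mean over a gene's spots kept all 5 counts within 1.5 times.

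For limma, 10 higher and 1 lower became 3 and 3 with normexp, 1 higher with no background correction, 2 and 0 with all 4 channels, 18 and 36 with no filter, 3 and 0 with the slide as a block, 2 and 0 against arrays of the same slide, 0 and 0 against arrays of the same lines, 26 and 8 without the genistein arrays, 600 and 274 against 0 with the spread pooled, and 0 and 0 for the wogonin arrays alone against 0. Leaving out 1 wogonin array gave 0 to 2 higher and 1 to 3 lower, with the lone array assumed to vary like the others. The cause was not tested. Of 352 ratios of named genes, 223 moved by less than the software error with normexp, 352 with median centring and 166 with the other arrays' mean subtracted, and IFI44L in FaDu changed sign, to -0.092, with the other arrays' mean subtracted. No paired analysis was possible because each group has 1 sample, so replicate numbers pair nothing, and cell line and slide entered as blocks in the fits above.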
